A study of Mus musculus with 8 samples.

Results

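The 35 genes described here encode the contractile apparatus of smooth muscle and its regulators, and they were taken by symbol from a fixed list out of the 55933 genes in the table. In the mammary gland their muscle forms are made by myoepithelial cells, the contractile outer layer of the epithelium, and by the mural cells of blood vessels. Gene expression was measured by RNA-seq in mammary epithelium from female C57BL/6 mice at day 14.5 of pregnancy, with 4 control mice (labelled WT) and 4 mice labelled Bmpr1a cKO. The cKO mice carried K14-rtTA, teto-Cre and Bmpr1a fl/fl and received doxycycline in drinking water, so that the K14 promoter, active in the basal layer, drove Cre and was meant to delete Bmpr1a, a BMP receptor gene, there. The exact genotype of the littermate controls, and whether they received doxycycline, are not given in the sources used here. The preparation was the whole digested epithelium rather than a sorted cell layer.

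Smooth muscle contraction begins when calcium and calmodulin switch on myosin light chain kinase, which phosphorylates the regulatory light chain and lets myosin pull on actin. Myosin phosphatase reverses this. Many of the genes are switched on by serum response factor together with myocardin or a myocardin-related coactivator. Myoepithelial cells use this machinery to squeeze milk from the alveoli in response to oxytocin.

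Each library held between 16123108 and 19896988 reads on genes. The 35 genes together took 1.26% ± 0.0609 of those reads in controls and 1.20% ± 0.0676 in the libraries labelled cKO (SD, n = 4 mice each). Bmpr1a itself was at 10.1 ± 1.28 FPKM (fragments scaled to gene length and to a size factor of the library) in controls and 11.2 ± 1.01 FPKM in the libraries labelled cKO (SD, n = 4 each). Bmpr1a RNA was therefore not lower in the libraries labelled cKO, reads on the deleted exons could not be separated from the rest of the gene, and every direction given here rests on the labels. The summed level of 4 milk protein genes ran from 1935 to 2549 FPKM in controls and from 3799 to 6347 FPKM in the libraries labelled cKO, where all 4 means were higher and Wap (adjusted p = 0.034) and Csn2 (adjusted p = 0.0461, by limma) rose. Adipocyte markers, higher in 3 of 3, ran from 0.50 to 1.10 FPKM in sum in controls and from 1.61 to 4.65 FPKM in cKO libraries, and Cidec rose (adjusted p = 0.0377 by limma). The part of either in the contractile gene values was not tested. The defining markers of myoepithelium were present in every library, and Krt5 ran from 112 to 154 FPKM over the 8 libraries. Summed levels of 5 such markers ran from 1175 to 1507 FPKM in controls and from 931 to 1266 FPKM in cKO libraries. Of the 5, 3 had lower and 2 higher means, and 2 were lower and 1 higher at an unadjusted p under 0.05 by limma. Summed levels of 8 vascular smooth muscle and pericyte markers ran from 63.4 to 79.9 FPKM in controls and from 47.5 to 74.7 FPKM in cKO libraries, so RNA of mural cells, which use many of the same contractile genes, was measurable.

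Acta2, the smooth muscle alpha-actin, was the most abundant of the 35 genes per unit of length, with 825 ± 164 FPKM in controls and 953 ± 160 FPKM in cKO libraries (SD, n = 4 each). Csrp1, a LIM protein of actin bundles, followed with 557 ± 73.5 and 663 ± 132 FPKM. Tagln2, Myl9, Myl6, Tpm1, Tpm2, Tpm4, Flna and Myh9 formed the next tier, with control means between 104 and 367 FPKM. At the low end stood Synpo2, Tagln, Ppp1r12b, Kcnmb1 and Des, with control means between 2.08 and 2.69 FPKM. Myocd, the gene of the coactivator myocardin, had 5 to 15 reads a library and was the 1 gene of the 35 that did not pass the filter on low values, a mean of at least 0.5 FPKM over the 8 libraries.

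**Figure D1:**
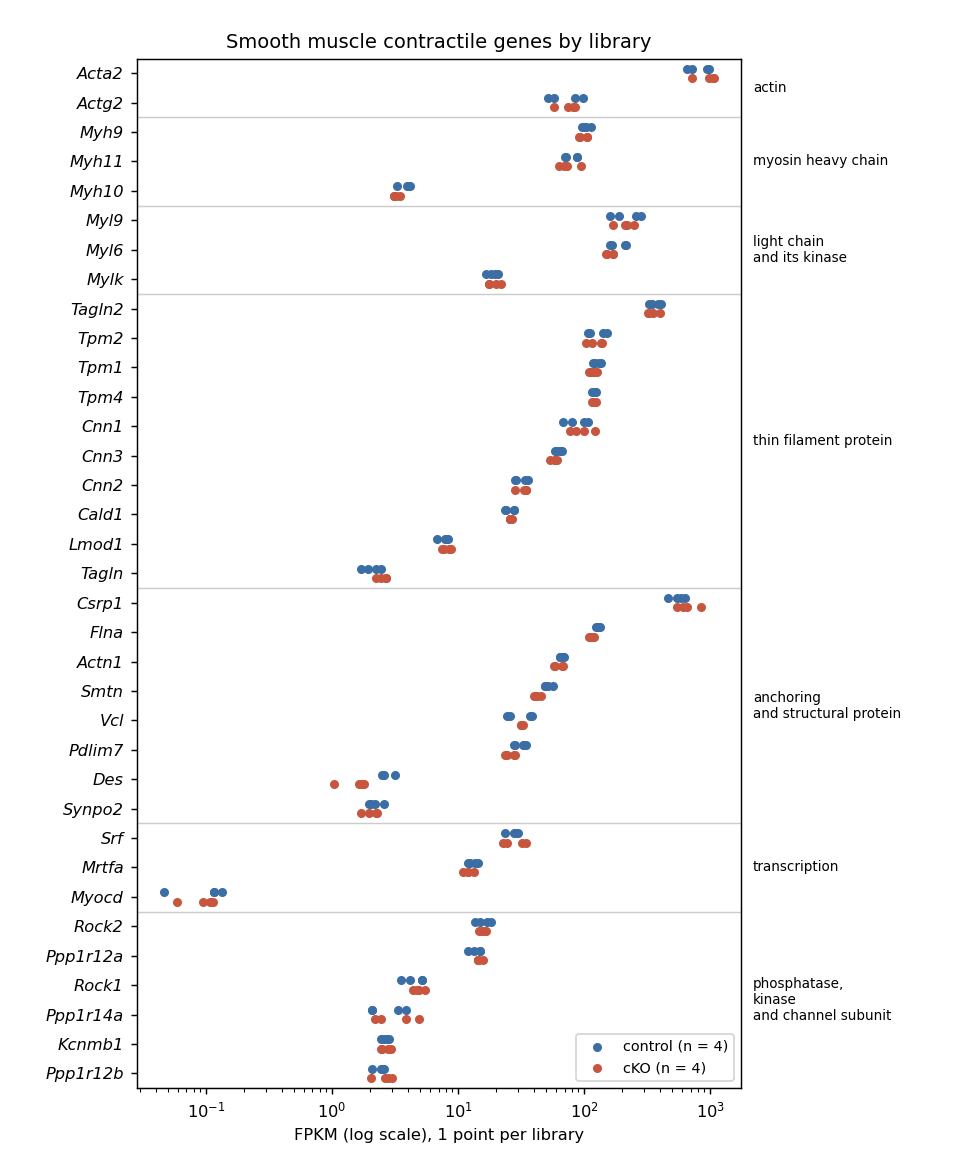
Level of each of the 35 contractile genes in FPKM on a log axis, 1 point per library, controls in blue and cKO libraries in red, grouped by role. The groups overlap for most genes, Acta2 lies highest and Myocd far below the rest.

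None of the 34 genes tested differed between the groups at an adjusted p under 0.05 (limma on log2(FPKM + 1), Benjamini-Hochberg over 15143 genes), while 0.892% of all genes tested did. Before adjustment, 5 of the 34 were under 0.05, or 14.7%, against a background of 16.4% of all genes. All 5 were lower in the libraries labelled cKO, so the share called lower was 14.7% of the 34 against 7.53% of all genes. They were Des, Smtn, Flna, Myh10 and Pdlim7. The groups did not overlap in 3 of the 34 genes, or 8.82%, against 10.7% of all genes. The shares in either direction and without overlap were thus slightly below those over all genes, and the share called lower was above it. This difference in shares was not tested. The same comparison on recovered read counts (limma-voom) gave 1 call at an adjusted p under 0.05 among the 34 genes, Des, against 1.66% of all genes. With the step between replicates 1 and 2 and replicates 3 and 4 as a term, limma gave 3 calls, Pdlim7, Smtn and Des, against 2.92% of all genes. The number under an unadjusted 0.05 was 2 without control replicate 4, and 3 without cKO replicate 1 or without cKO replicate 2. All of these were lower, where 976, 1137 and 916 of 15143 genes were called lower in the 3 fits in that order. Without control replicate 4 the share called lower was thus not above that over all genes. Since the RNA came from a mixed preparation, fewer cells of a type and less RNA per cell cannot be told apart in any of these values.

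Means were higher in cKO libraries for 16 genes and lower for 18, with a median difference of -0.02 on the log2(FPKM + 1) scale against 0.00 over all genes. Single genes ran from -0.54 for Des to 0.24 for Csrp1, and 20 of the 34 differences lay within 0.1 of 0 on that scale. The 95% confidence interval of each of the 34 differences lay within a 2-fold change in either direction on that scale, which compresses changes of low genes. For Des the difference was -0.78 (SE 0.17) with a pseudocount of 0.1 and -0.81 (SE 0.18) by limma-voom, with intervals that reach past a 2-fold change. When each library was rescaled to the same FPKM total (TPM), the split of higher to lower means became 10 to 24. Over all genes, the same rescaling turned 1340 higher and 1140 lower calls at an unadjusted p under 0.05 into 784 and 1657. Scaling the FPKM to the reads on genes of each library, in place of the authors' size factors, also gave 10 to 24 among the members and 864 to 1792 calls over all genes. With that scaling, chosen after seeing the data, 9 of the 34 genes were under an unadjusted p of 0.05, all lower, where 11.8% of all genes were called lower, and Des (adjusted p = 0.0499 by limma) was the 1 gene called after adjustment, against 1.13% of all genes.

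**Figure D2:**
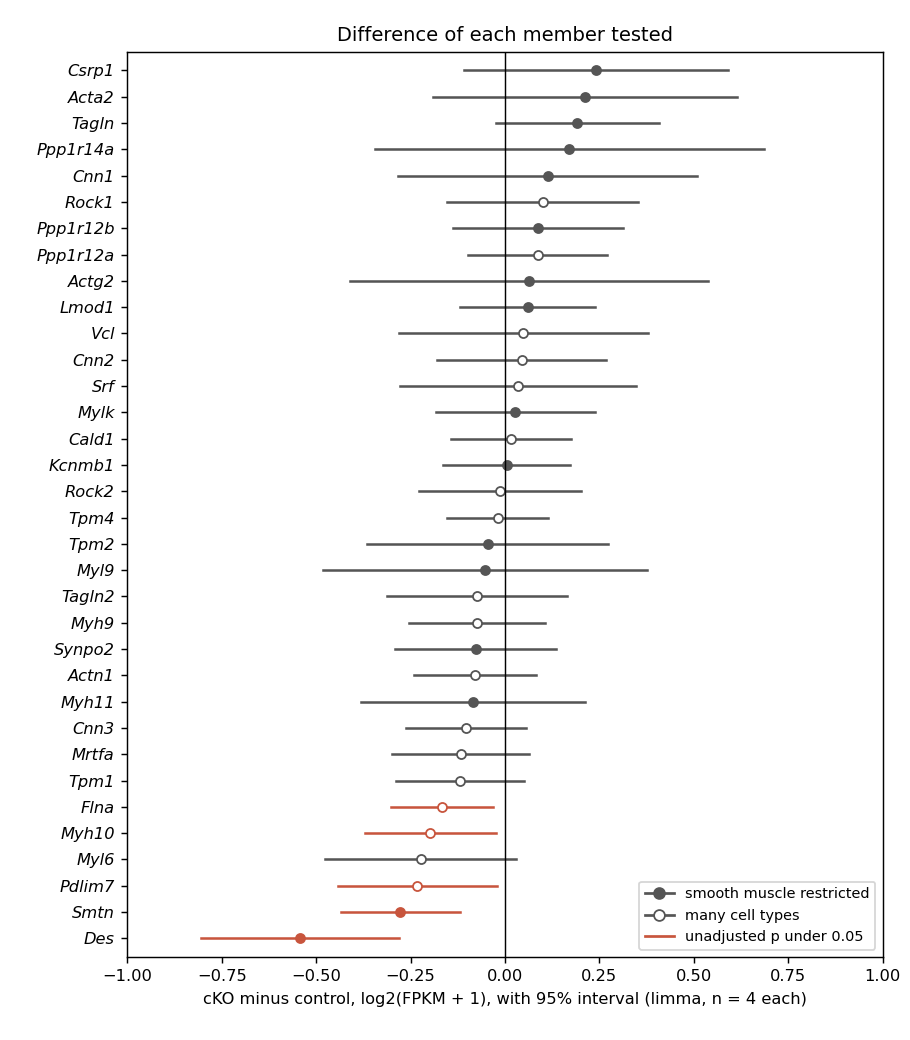
Difference of cKO from control on the log2(FPKM + 1) scale for the 34 genes tested, ordered by size, with 95% intervals from limma (n = 4 each), filled points for muscle-restricted genes and open points for genes of many cell types. Most intervals cross 0, and those of Des, Smtn, Pdlim7, Myh10 and Flna, in red, lie below it.

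Among the 16 tested genes that are largely restricted to muscle and contractile cells, 10 means were higher and 6 lower in cKO libraries, with a median difference of 0.04. Among the 18 tested genes that many cell types express, 6 were higher and 12 lower, with a median of -0.07. Under TPM scaling the splits became 8 to 8, with a median of -0.02, and 2 to 16, with a median of -0.14. The median over all genes was -0.06 under that scaling, against 0.00 before it. The difference between these medians was not tested.

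The transcriptional regulators came first in order of role. Srf, the DNA-binding factor, was measured at 29.7, 23.7, 28.3 and 27.6 FPKM in the controls and at 24.5, 22.5, 32.0 and 34.5 FPKM in the cKO libraries. The cKO values spread on both sides of the controls. The difference was 0.04 on the log2(FPKM + 1) scale, which is meant wherever the log2 scale is named (SE 0.14, adjusted p = 0.927 by limma), -0.026 under TPM scaling and -0.023 under scaling to reads on genes. Mrtfa, whose product carries actin signals to serum response factor, had 12.5, 12.01, 14.4 and 13.6 FPKM in controls and 10.9, 11.9, 13.3 and 12.01 FPKM in cKO libraries, with overlapping groups. Its difference was -0.12 (SE 0.08, adjusted p = 0.516 by limma), and ran from -0.16 to -0.074 without 1 library. For Mrtfa it was -0.18 under TPM scaling (unadjusted p = 0.0345, adjusted p = 0.264 by limma). Under scaling to reads on genes it was -0.17 (unadjusted p = 0.0481, adjusted p = 0.280 by limma). Myocd lay between 0.0465 and 0.135 FPKM in controls and between 0.0587 and 0.113 FPKM in cKO libraries. At this depth no difference in Myocd was detectable (exact permutation test, two-sided, p = 0.629).

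Serum response factor binds a short motif known as the CArG box. RefSeq promoters on GRCm38, covering 250 bases before to 50 bases after the start, were matched for 30 of the 35 genes, and Actg2, Myh11, Tagln, Myocd and Rock1 were not matched. A CArG box was found on either strand in 5 of the 30, or 16.7%, and in 488 of 27025 genes with a promoter, or 1.81%. The match of letters is a description of the window and not a measure of binding. The boxes are shown because this is the motif through which the factor acts on contractile genes, and each stretch is 30 bases in the direction of the gene with the CArG box in capitals.
Srf, chr17:46556215-46556244, minus strand: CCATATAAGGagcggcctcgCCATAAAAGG
Vcl, chr14:20929161-20929190, plus strand: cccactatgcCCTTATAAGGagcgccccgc
Myl9, chr2:156775293-156775322, plus strand: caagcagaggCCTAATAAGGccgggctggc
Cnn2, chr10:79988534-79988563, plus strand: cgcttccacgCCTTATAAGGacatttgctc
Myl6, chr10:128493040-128493069, minus strand: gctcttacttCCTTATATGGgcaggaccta
The Srf promoter held 2 boxes 82 and 62 bases before its own start. The box lay 56 bases before the start in Cnn2, 161 in Myl9 and 227 in Vcl. RefSeq lists 2 starts for Myl6, and its box lay 50 bases before the downstream one, within the annotated gene at GRCm38 chr10:128490860-128494145 on the minus strand. Vcl and Cnn2 carried the same 10 letters. None of these 5 genes was under an unadjusted p of 0.05 by limma on log2(FPKM + 1), though Myl6 was in other fits given with the light chains, and their differences were 0.04 for Srf, 0.05 for Vcl, -0.05 for Myl9, 0.04 for Cnn2 and -0.22 for Myl6 on the log2 scale.

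The actins were the most abundant family. Acta2 (GRCm38 chr19:34241090-34255590, minus strand) was measured at 653, 718, 949 and 981 FPKM in the controls and at 719, 983, 1047 and 1062 FPKM in the cKO libraries. The highest values were in cKO libraries, and the groups overlapped widely. The difference was 0.21 on the log2 scale (SE 0.18, 95% interval -0.19 to 0.61, adjusted p = 0.607 by limma). It was 0.11 without control replicate 1 and 0.34 without cKO replicate 1, with adjusted p from 0.368 to 0.834 over the libraries left out (limma). With a block for each replicate number the unadjusted p of Acta2 was 0.0344 by limma and 0.0124 by limma-voom. The adjusted p was 0.208 and 0.113 in these fits, and 0.275 by limma with replicates 1 and 2 blocked apart from 3 and 4. Actg2, the gamma-actin of visceral smooth muscle, had 57.8, 52.1, 98.2 and 84.7 FPKM in controls and 58.0, 84.4, 82.3 and 74.6 FPKM in cKO libraries. The lowest and the highest of the 8 values were both controls, and the difference was 0.06 (SE 0.21, adjusted p = 0.912 by limma). Of the FPKM of these smooth muscle actins, Acta2 made up 91.9% ± 1.07 in controls and 92.7% ± 0.559 in cKO libraries (SD, n = 4 each).

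Acta2 was next set against keratins of the same cell layer, which asks whether it moved relative to other myoepithelial RNA. Krt14 was measured at 680, 665, 816 and 850 FPKM in controls and at 512, 490, 666 and 641 FPKM in cKO libraries. The difference was -0.39 on the log2 scale (SE 0.14, unadjusted p = 0.0198, adjusted p = 0.209 by limma). The log2 ratio of Acta2 to Krt14, each taken as FPKM + 1, was -0.06, 0.11, 0.22 and 0.21 in controls and 0.49, 1.00, 0.65 and 0.73 in cKO libraries. All 4 cKO ratios lay above all 4 control ratios, and the means differed by 0.60 (p = 0.0286 by an exact two-sided permutation test, and no lower p is possible with 4 libraries a group). Against Krt5, another basal keratin, the ratio was 2.53, 2.60, 2.77 and 2.87 in controls and 2.67, 3.05, 2.76 and 3.04 in cKO libraries. These groups overlapped and the means differed by 0.19 (exact permutation test, p = 0.2). The difference in ratio to Krt14 therefore depended on the keratin chosen, and Krt5 differed by 0.02 between the groups (adjusted p = 0.941 by limma). Among the other myoepithelial markers, Trp63 differed by -0.42 (unadjusted p = 0.0140, adjusted p = 0.181 by limma), without overlap of the groups. Oxtr, the oxytocin receptor, differed by 0.85, also without overlap (unadjusted p = 0.000893, adjusted p = 0.0644 by limma). Krt17 differed by -0.35 with overlapping groups (unadjusted p = 0.0567, adjusted p = 0.320 by limma).

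**Figure D3:**
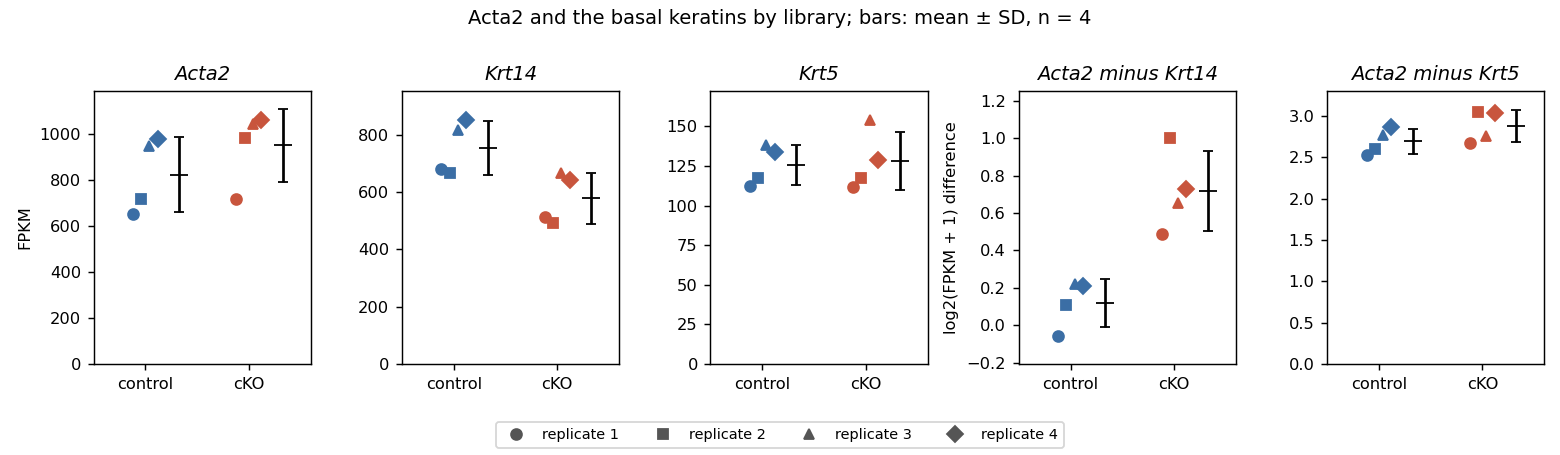
FPKM of Acta2, Krt14 and Krt5 in each library, and the difference of Acta2 from each keratin on the log2(FPKM + 1) scale, in control and cKO libraries. Marker shapes are replicate numbers and bars are mean ± SD (n = 4 each), and the groups separate against Krt14 but overlap against Krt5.

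Among the myosin heavy chains, Myh11, the smooth muscle form, was at 70.8, 71.9, 87.7 and 87.1 FPKM in controls and 63.2, 69.5, 73.7 and 94.5 FPKM in cKO libraries. The cKO values reached both below and above the controls. The difference was -0.08 (SE 0.13, 95% interval -0.38 to 0.21, adjusted p = 0.797 by limma), and ran from -0.20 without cKO replicate 4 to -0.0079 without cKO replicate 1. Myh10, a non-muscle heavy chain, was at 4.15, 3.99, 3.29 and 3.93 FPKM in controls and 3.11, 3.44, 3.08 and 3.24 FPKM in cKO libraries. Control replicate 3 lay inside the cKO range. Myh10 differed by -0.20 (SE 0.08, unadjusted p = 0.0295, adjusted p = 0.245 by limma). Myh9, the other non-muscle heavy chain measured, was the most abundant of the family and held 55.5% ± 3.83 of its FPKM in controls and 55.9% ± 2.92 in cKO libraries. Myh11 held 42.4% ± 3.98 and 42.3% ± 3.02 (SD, n = 4 each).

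None of the 3 light chain and kinase genes was under an unadjusted p of 0.05 by limma, a threshold that 16.4% of all genes passed. Myl9, the regulatory light chain that the kinase phosphorylates, was at 160, 190, 283 and 257 FPKM in controls and 170, 217, 209 and 247 FPKM in cKO libraries. The cKO range lay inside the control range, and the difference was -0.05 (SE 0.19, adjusted p = 0.919 by limma). Mylk, the kinase, was at 16.5, 18.4, 19.5 and 20.9 FPKM in controls and 17.5, 19.9, 17.7 and 21.7 FPKM in cKO libraries, with a difference of 0.03 (SE 0.09, adjusted p = 0.918 by limma). Its sign turned to -0.033 under TPM scaling and to -0.030 under scaling to reads on genes. Myl6, the essential light chain, averaged 188 ± 28.1 FPKM in controls and 160 ± 10.5 FPKM in cKO libraries (SD, n = 4 each). Myl6 was lower at an unadjusted p of 0.00404 under TPM scaling and 0.00348 with the step between replicate numbers as a term, and its adjusted p was 0.115 and 0.072 in these limma fits.

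**Figure D4:**
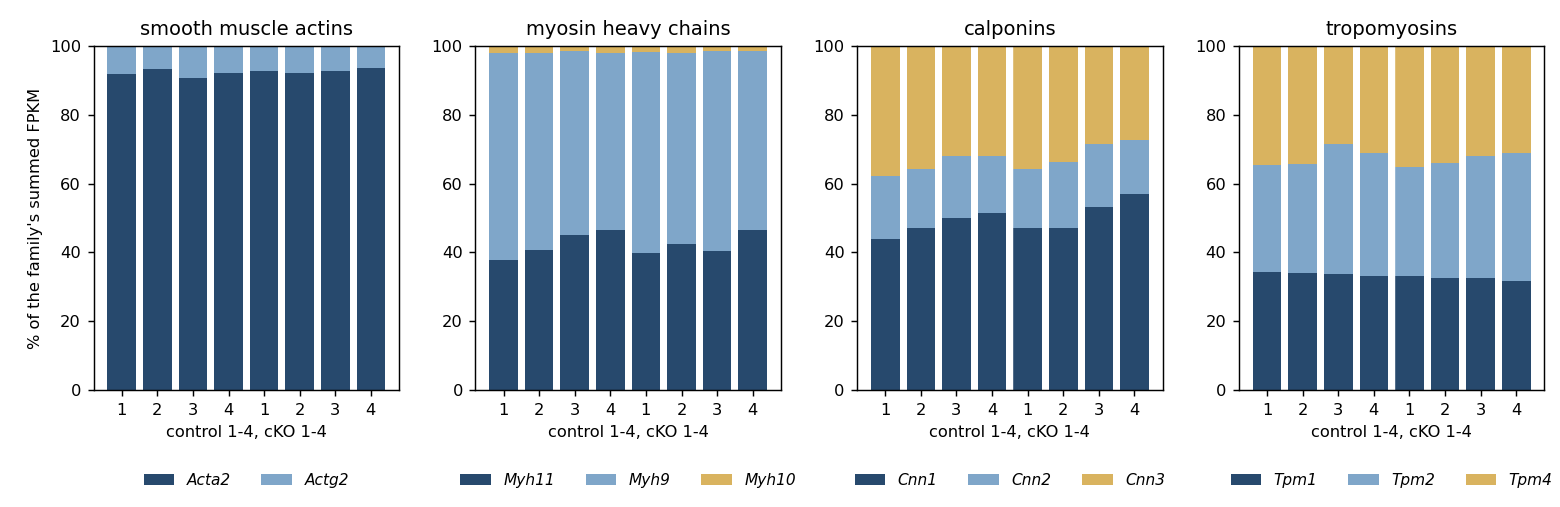
Share of each gene in the summed FPKM of its family, in percent from 0, for the smooth muscle actins, myosin heavy chains, calponins and tropomyosins. Each stacked bar is 1 library, controls 1 to 4 and then cKO 1 to 4, and Acta2 fills most of every actin bar in both groups.

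Of the 10 thin filament genes, 0 were under an unadjusted p of 0.05 by limma, against 16.4% of all genes. Cnn1, the calponin typical of smooth muscle, was at 67.6, 79.9, 100.2 and 107 FPKM in controls and 77.5, 85.5, 98.9 and 121 FPKM in cKO libraries. The groups overlapped over most of their range, with a difference of 0.11 (SE 0.17, adjusted p = 0.797 by limma). Cnn1 held 48.1% ± 3.31 of calponin FPKM in controls and 51.0% ± 4.83 in cKO libraries. The calponins of many cell types averaged 31.8 ± 3.83 and 32.8 ± 2.92 FPKM for Cnn2, and 62.4 ± 3.81 and 58.0 ± 3.51 FPKM for Cnn3 (SD, n = 4 each). The tropomyosins, which lie along the actin filament, had control means of 127 ± 8.43 FPKM for Tpm1, 128 ± 22.0 for Tpm2 and 120 ± 4.02 for Tpm4. Their cKO means were 117 ± 7.25, 123 ± 17.04 and 118 ± 3.80 FPKM (SD, n = 4 each). The level of Tpm4 rests on a deposited length of 4269 bases, while its exons in GENCODE cover 2203 bases, so it cannot be compared closely with the others. Tpm1 was lower at an unadjusted p of 0.0129 under TPM scaling and 0.0232 with the step between replicate numbers as a term (adjusted p = 0.180 and 0.162 by limma). Lmod1, which nucleates actin filaments in smooth muscle, was at 6.78, 7.98, 8.31 and 7.84 FPKM in controls and 7.75, 7.42, 8.77 and 8.44 FPKM in cKO libraries. Its difference was 0.06 (SE 0.08, adjusted p = 0.757 by limma). It ran from 0.0057 to 0.096 without 1 library and was 0.0054 under TPM scaling. Cald1, caldesmon, averaged 25.8 ± 2.28 and 26.0 ± 0.572 FPKM.

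Tagln, transgelin, was far lower than Acta2, Cnn1 and Myh11 in every library. It was measured at 1.71, 1.92, 2.46 and 2.22 FPKM in controls and 2.21, 2.44, 2.69 and 2.68 FPKM in cKO libraries, from 59 to 99 reads each. The groups overlapped and the difference was 0.19 (SE 0.10, unadjusted p = 0.0745, adjusted p = 0.358 by limma). Of its exon bases, 67.9% are shared with exons of genes on the opposite strand, most of them with Gm48529, and whether strand was used in counting is not given in the sources used here. Reads from Tagln and its antisense neighbours can therefore not be told apart, and the part of this overlap in the level was not tested. Tagln2, its relative in many cell types, averaged 367 ± 37.5 FPKM in controls and 349 ± 36.5 FPKM in cKO libraries.

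The genes that anchor and link the filaments held 4 of the 5 genes under an unadjusted p of 0.05, out of 8 tested, all lower, while 7.53% of all genes were called lower. The groups of genes by role were set with earlier results known, and the count was not tested. Des, the intermediate filament protein of muscle cells and of many pericytes (GRCm38 chr1:75360329-75368579), was at 2.55, 2.48, 3.15 and 2.57 FPKM in controls and 1.81, 1.03, 1.69 and 1.64 FPKM in cKO libraries. Every cKO library was below every control. The mean was 2.69 ± 0.311 FPKM in controls and 1.54 ± 0.347 FPKM in cKO libraries (SD, n = 4 each), a difference of -0.54 on the log2 scale (SE 0.12, 95% interval -0.81 to -0.28, unadjusted p = 0.00115, adjusted p = 0.0717 by limma). These values rested on 64 to 198 reads a library. On recovered reads the difference was -0.81 (adjusted p = 0.0485 by limma-voom), and over the alternatives that kept every library the adjusted p ran from 0.0298 to 0.161. Beside them, 7 of 8 vascular smooth muscle and pericyte markers had lower means in cKO libraries, none under an unadjusted p of 0.05, and 5 of 5 fibroblast markers had lower means, with sums from 373 to 783 FPKM in controls and from 256 to 610 FPKM in cKO libraries. Endothelial markers had lower means in 3 of 3, with sums from 58.4 to 68.4 FPKM in controls and from 42.7 to 65.1 FPKM in cKO libraries, and 1 of them, Pecam1, was under an unadjusted p of 0.05. Leukocyte markers had lower means in 4 of 4, with sums from 6.71 to 20.6 FPKM and from 3.58 to 6.40 FPKM, and 2 of them, Adgre1 and Cd79a, were under an unadjusted p of 0.05. Of 5 skeletal muscle markers, 3 had higher and 2 lower means, and their sums ran from 0.974 to 1.69 FPKM in controls and from 0.981 to 2.03 FPKM in cKO libraries. Acta1 was higher by 0.48 (unadjusted p = 0.00969, adjusted p = 0.157 by limma), on 5 to 29 reads a library and with overlapping groups. Ckm, Tnnt3 and Myh4 were under the filter on low values and were not tested by limma. No gene of these marker lists was at 0 in all libraries. The part of these cells in the Des difference was not tested.

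Smtn, smoothelin, an actin-binding protein of contractile smooth muscle (GRCm38 chr11:3517523-3540612), was at 48.9, 48.8, 56.8 and 51.7 FPKM in controls and 41.7, 40.2, 45.4 and 41.9 FPKM in cKO libraries. The groups did not overlap. The difference was -0.28 on the log2 scale (SE 0.07, unadjusted p = 0.00337, adjusted p = 0.105 by limma), a fold of 0.825 on that scale, and with the step between replicate numbers as a term the adjusted p was 0.0363. Of its exon bases, 16.3% are shared with Gm11946, which had 6 to 21 reads. Flna, filamin A, which crosslinks actin, was at 128, 133, 124 and 132 FPKM in controls and 113, 110, 119 and 118 FPKM in cKO libraries, again without overlap. It differed by -0.17 (SE 0.06, unadjusted p = 0.0202, adjusted p = 0.211 by limma). Pdlim7, a PDZ and LIM protein of actin fibres, was at 28.3, 27.9, 34.6 and 32.6 FPKM in controls and 23.6, 24.5, 28.3 and 27.9 FPKM in cKO libraries. The groups overlapped at their edges, and the difference was -0.23 (SE 0.09, unadjusted p = 0.0339, adjusted p = 0.257 by limma). With the step between replicate numbers as a term the adjusted p of Pdlim7 was 0.0354 by limma. With a block for each replicate number the adjusted p was 0.0792 for Pdlim7 and 0.0633 for Smtn by limma.

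**Figure D5:**
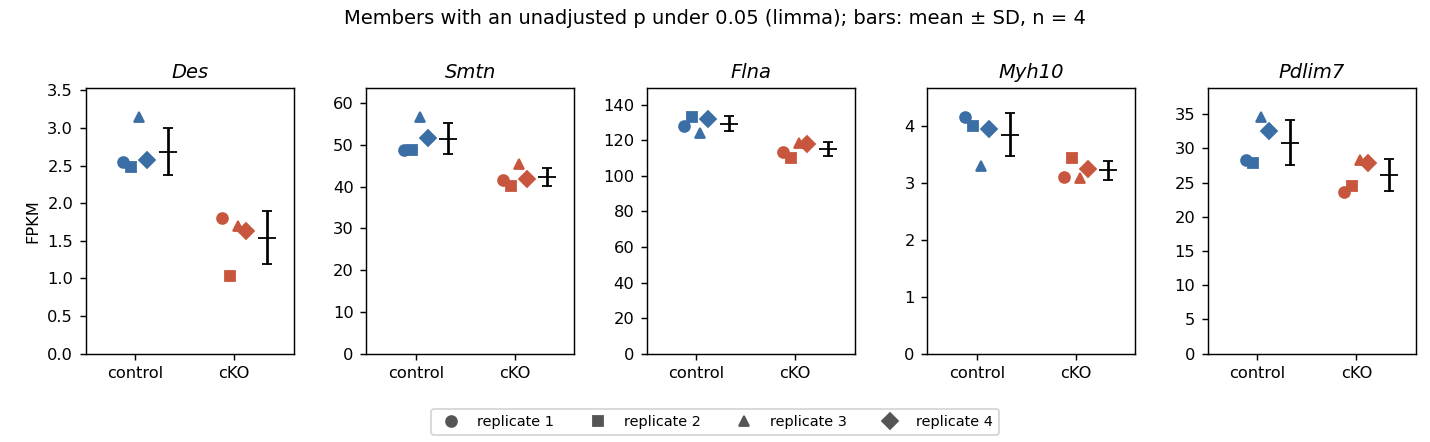
FPKM in each library of the 5 contractile genes with an unadjusted p under 0.05, control and cKO libraries side by side, each axis starting at 0. Marker shapes are replicate numbers and bars are mean ± SD (n = 4 each), and the groups do not overlap for Des, Smtn and Flna but do for Myh10 and Pdlim7.

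Synpo2, a Z-disc and dense body protein, was at 2.04, 2.60, 1.96 and 2.21 FPKM in controls and 2.22, 1.97, 1.70 and 2.26 FPKM in cKO libraries, with a difference of -0.08 (SE 0.09, adjusted p = 0.733 by limma). Without 1 library the difference of Synpo2 ran from -0.11 to -0.020, and under TPM scaling it was -0.15. Csrp1 was at 542, 463, 589 and 636 FPKM in controls and 603, 544, 657 and 849 FPKM in cKO libraries. It had the highest difference of the contractile genes, 0.24 (95% interval -0.11 to 0.59, adjusted p = 0.486 by limma), and the interval included 0. The step between replicates 1 and 2 and replicates 3 and 4, described with the replicate values, was part of the spread between libraries in this fit. With the step as a term the unadjusted p of Csrp1 was 0.0384 (adjusted p = 0.205 by limma). Vcl, vinculin, averaged 31.5 ± 7.43 and 32.0 ± 0.762 FPKM, and Actn1, an alpha-actinin, 66.6 ± 2.06 and 63.1 ± 5.24 FPKM (SD, n = 4 each). Of the exon bases of Vcl, 25.5% are shared with Ap3m1, so its reads are uncertain.

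The genes that set the phosphorylation of myosin and the excitability of the membrane gave 0 calls among 6 by limma at an unadjusted p under 0.05. That threshold was passed by 16.4% of all genes, so 0 among 6 says little about this group. Of their means, 5 of 6 were higher in cKO libraries and 4 of 6 under TPM scaling. The myosin phosphatase targeting subunits averaged 13.8 ± 1.46 and 14.7 ± 0.709 FPKM for Ppp1r12a, and 2.39 ± 0.233 and 2.62 ± 0.407 FPKM for Ppp1r12b, in controls and cKO libraries. Ppp1r14a, a phosphatase inhibitor, averaged 2.82 ± 0.898 and 3.35 ± 1.26 FPKM, with a 95% interval of -0.35 to 0.68 for the difference, so a moderate change in it was not detectable. The kinase genes of this group averaged 4.52 ± 0.802 and 4.88 ± 0.444 FPKM for Rock1, and 15.996 ± 2.13 and 15.8 ± 0.914 FPKM for Rock2. Kcnmb1, a subunit of the calcium-activated potassium channel, averaged 2.66 ± 0.165 and 2.67 ± 0.238 FPKM (SD, n = 4 each).

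Replicates 3 and 4 stood apart from replicates 1 and 2 for many of these genes. In both groups, 14 of the 16 tested muscle-restricted genes were higher in replicates 3 and 4 than in replicates 1 and 2, and the remaining genes, Synpo2 and Ppp1r12b, were lower in both. Among the 18 genes of many cell types, 7 were higher and 5 lower in both groups. Over all genes tested, deviations from the group means correlated at -0.21 to -0.072 between control and cKO libraries across this division. They correlated at 0.0797 to 0.137 for the same number and at 0.0873 to 0.178 for the other number on the same side. The division was therefore not limited to the contractile genes, and the share of all genes with such a step was not counted. For Acta2 this step was 0.49 in controls and 0.33 in cKO libraries on the log2 scale, and for Myl9 it was 0.63 and 0.24. The labels do not say whether these numbers mark a batch. Within replicates 1 and 2, Des differed by -0.56 between cKO and control, and within replicates 3 and 4 by -0.53. Smtn differed by -0.25 and -0.31, and Pdlim7 by -0.22 and -0.25. With this division of the libraries as a term in the limma fit, the adjusted p was 0.0354 for Pdlim7, 0.0363 for Smtn and 0.0448 for Des, so that 3 of 34 genes were called against 2.92% of all genes. In that fit 7 of the 34 were lower (these and Myl6, Flna, Myh10 and Tpm1) and 2 higher at an unadjusted p under 0.05. Over all genes, 1434 of 15143 were lower and 1797 higher, or 21.3% in either direction. The 2 higher genes were Tagln (unadjusted p = 0.0189, adjusted p = 0.147 by limma) and Csrp1 (unadjusted p = 0.0384, adjusted p = 0.205 by limma).

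Of 48 other genes of actomyosin contraction and its anchoring, 45 were tested, 3 were higher and 1 lower at an unadjusted p under 0.05, or 8.89% against 16.4% of all genes, and none passed after adjustment (limma, Benjamini-Hochberg). Hspb1, a small heat shock protein that binds actin, was at 341, 332, 301 and 324 FPKM in controls and 341, 563, 545 and 922 FPKM in cKO libraries. The groups were separated only narrowly, because cKO replicate 1 stood level with the controls, and the difference was 0.78 (SE 0.25, adjusted p = 0.174 by limma). Lims1, an adaptor of focal adhesions, differed by 0.23 (adjusted p = 0.238), Filip1l by 0.22 (adjusted p = 0.253) and Itpr1, a calcium release channel, by -0.32 (adjusted p = 0.260, all by limma).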

How the data were processed

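RNA from 8 libraries, 1 per mouse, was sequenced by the study. The deposited values are FPKM per gene, which the authors made from reads aligned with Hisat2 to GRCm38. The submitters' notes name StringTie 1.3.3b, featureCounts 1.5.0-p3 and the build mm9, without roles. Of the gene IDs, 55394 are in GENCODE vM21 and 99.7% have its GRCm38 coordinates, so GRCm38 was used. Strand setting, annotation release and handling of multi-mapped reads are not given in the sources used here. FPKM times gene length, divided by 1 step per library, gave whole reads (tolerance 0.01). That step follows median-of-ratios size factors over 19210 genes, not total reads: the implied library size was 0.933 to 1.05 times the reads on genes.

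Genes with a mean of at least 0.5 FPKM (15143) were tested with limma 3.58.1 in R 4.3.3 on log2(FPKM + 1), a scale that understates changes of low genes, with a trended empirical Bayes fit and Benjamini-Hochberg adjustment. A second test used limma-voom on recovered reads. Scripts were tested on simulated data. Acta2 to keratin ratios and Myocd, which was under the filter, were tested with exact permutation tests. The members and lists were chosen with earlier results of these data known. Genes given a fold change, SE and p were those with an unadjusted p under 0.05 and Acta2, Actg2, Myh11, Tagln, Cnn1, Mylk, Myl9, Lmod1, Synpo2, Des, Myocd, Srf and Mrtfa, and the 4 pathway genes with the smallest p, besides cell type markers. Csrp1, Myl6 and Tpm1 were given p-values after their values were seen. Promoters came from RefSeq on GRCm38.p6. Alternatives left out each library, changed the pseudocount, filter or scaling (to reads on genes, added after seeing the data), or blocked by replicate number.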

Additional observations from a re-analysis of the deposited data

Results flagged for a closer look

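Among 74 sets of 4 libraries checked, 3 held a value far from the other members of its group, where chance gives about 3.7. Des in control replicate 3 was at 3.148 FPKM (198 reads), against 2.476 to 2.569 FPKM in the other controls. Cald1 in cKO replicate 2 was at 26.85 FPKM, against 25.62 to 25.79 FPKM in the other cKO libraries. Ppp1r12a in cKO replicate 1 was at 15.74 FPKM, against 14.27 to 14.36 FPKM.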

How the results depend on the processing

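Of 288 pairs of a named gene and an alternative, 264 kept direction and side of the threshold, 8 passed it and 16 turned sign (in Actg2, Myl9, Mylk, Cnn1 and Srf). Mylk became -0.033 and Srf -0.026 after rescaling to TPM, and -0.030 and -0.023 after scaling to reads on genes (chosen after seeing the data). With 1 library left out, differences ran from -0.081 to 0.22 for Actg2, from -0.20 to 0.074 for Myl9, from -0.032 to 0.075 for Mylk, from -0.0076 to 0.21 for Cnn1 and from -0.063 to 0.13 for Srf. The replicate numbers did not pair the mice by the criterion used: same-numbered libraries correlated between 0.0797 and 0.137 in their deviations from the group means, not every library correlated best with its own number, and they share only a number.

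The count of contractile genes with an adjusted p under 0.05, which was 0, became 3 once replicates 1 and 2 were blocked apart from 3 and 4 (Pdlim7, Smtn, Des), 1 with limma-voom on recovered reads (Des, adjusted p = 0.0485), 3 with limma-voom with the replicate block (Smtn, Des, Pdlim7) and 1 with scaling to reads on genes (Des, adjusted p = 0.0499), and stayed 0 with each library left out and with limma with the replicate block, where the adjusted p was 0.0633 for Smtn, 0.0719 for Des and 0.0792 for Pdlim7. Over the alternatives other than leaving out a library, the adjusted p of Des ran from 0.0298 to 0.161. The count under an unadjusted 0.05, which was 5, became 8 with TPM, 9 with scaling to reads on genes, 10 with the replicate block, 9 with the block of sets and 9 with limma-voom with the replicate block (higher among them: Tagln and Csrp1 with the block of sets, these and Acta2 with the replicate block, and Acta2 and Csrp1 with limma-voom and the block), and ran from 2 to 5 without 1 library. Over all genes, 135 with an adjusted p under 0.05 became 10 without a filter, 50 with the replicate block, 442 with the block of sets, 252 with limma-voom and 680 with limma-voom and the block, and 0 (without control replicate 4) to 78 without 1 library. The pathway list went from 4 to 10 with the replicate block, 9 with the block of sets and 9 with limma-voom and the block, and from 2 (without cKO replicate 2 or 4) to 7 (without cKO replicate 1). Among all genes tested, the count under an unadjusted 0.05, which was 2480, became 2441 with TPM and 2656 with scaling to reads on genes. It became 3124 with the replicate block, 3231 with the block of sets and 3389 with limma-voom and the block. It ran from 2047 to 2515 without 1 library. With the blocks the count thus rose over all genes as well, while with TPM it did not. Whether either list rose more than all genes was not tested. The cause of these shifts in counts was not tested.

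The ratio of Acta2 to Krt14 differed by 0.60, by 0.19 with Krt5 in its place (exact permutation p = 0.2) and by 0.50 to 0.68 without 1 library, where the smallest exact p is 0.0571. Des, Tagln and Myocd rest on few reads, which limits their precision.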
